A study of Mus musculus with 8 samples.

Results

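The 1781 m6A peaks described here had the same bounds in 2 separately called peak tables, one from control and one from doxycycline-treated mouse embryonic stem cells. They were selected on their positions alone: chromosome, start, end, strand, gene identifier and every exonic block had to be equal in both tables. The members made up 6.9% of the 25815 control peaks and 6.45% of the 27612 Dox peaks. A control peak can have an identical partner only where some Dox peak overlaps it, and the members were 8.55% of the 20832 control peaks that a Dox peak of the same strand overlapped by at least 1 exonic nucleotide (exact Clopper-Pearson 95% interval 8.17% to 8.94%). Such intervals cover counting error only, here and below, and treat peaks as independent.

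All cells were feeder-free mouse embryonic stem cells carrying a doxycycline (Dox)-inducible knockdown of Setd2. They grew as spheres on gelatin in serum-free 2i medium containing LIF at 1000 U/ml and inhibitors of MEK (PD0325901, 1 µM) and GSK3 (CHIR99021, 3 µM). The Dox group received 1 µg/ml Dox for 4 days, the control group received none, and no Dox-treated cells without the construct were included, so Dox and the knockdown cannot be told apart. Each condition had 2 replicates of input RNA and 2 of RNA immunoprecipitated for m6A (IP), 8 libraries in all, and the authors called 1 table per condition from its 4 libraries together. Depth per library is unknown, no replicate spread exists for a peak, and no difference between the conditions was tested. All 8 embryonic stem cell markers checked (among them Pou5f1, Nanog and Esrrb) had peaks in both tables, as had 3 of 8 fibroblast markers.

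N6-methyladenosine (m6A) is a methyl mark set on adenosines of messenger RNA by the METTL3-METTL14 complex, mostly within a short consensus around GGAC, and it is typically dense near stop codons and in long internal exons. SETD2 trimethylates lysine 36 of histone H3 along transcribed genes. A peak caller such as exomePeak slides windows along the exons of each gene and joins neighbouring windows in which IP reads outnumber input reads, so the bounds of a peak follow where that excess was called and where the annotated gene begins and ends.

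Some identical peaks began exactly at an annotated gene start, and the sequences there are shown because they mark the first bases of those peaks. In 61 members the 5′ bound lay exactly on a RefSeq gene start (3.43%, 2.63% to 4.38%), compared with 2.22% of control peaks in pairs with different bounds (1.99% to 2.47%). The 8 of them with the best worse-of-both rank by FDR are given below as sense strand 5′ to 3′, with 10 bases before the start in lower case and the first 20 transcribed bases in capitals (RefSeq, GRCm38.p6, the assembly of mm10). Ftl1 encodes ferritin light chain, Pym1 a factor that recycles the exon junction complex, Rpl18 a large-subunit ribosomal protein, and Atp5g3 a subunit of the mitochondrial ATP synthase. Mcrs1 encodes a subunit of chromatin complexes, Srsf7 an SR splicing factor, Dtymk thymidylate kinase and Psmd4 the ubiquitin receptor of the proteasome.
Ftl1, chr7:45459867-45459896, minus strand: acccctccctCCGGAGGGTCAACATGCTAT
Pym1, chr10:128747869-128747898, plus strand: cctctgacccGAGAGGATCCAGTACTGAGC
Rpl18, chr7:45718061-45718090, plus strand: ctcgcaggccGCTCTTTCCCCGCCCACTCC
Atp5g3, chr2:73911307-73911336, minus strand: cggcgcggatAAGAGCCGCACCGCGCTTGC
Mcrs1, chr15:99251942-99251971, minus strand: aacccttcgtTCGCAACCCGGAAGTAGATG
Srsf7, chr17:80207286-80207315, minus strand: cctcttccttGTAGTGCCGCCGGGATTGCA
Dtymk, chr1:93801915-93801944, minus strand: cgcaggccacAGAATTCGTTTTCCAACCGG
Psmd4, chr3:95042595-95042624, minus strand: tgagttctttGATTGGTGATGAGCACCAGG

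The letters GGAC occurred in the first 50 transcribed bases of 14 of the 61 members (23.0%, 13.2% to 35.5%), among them Ftl1 and Rpl18. The same search found GGAC in 23.7% of the 582 control peaks that began at a RefSeq start with a listed sequence, in 24.8% of 323 such Dox peaks and in 18.9% of all 32817 listed starts. Counting both strands, the figure for members was 37.7%, beside 37.3% of those control peaks, 39.3% of those Dox peaks and 33.3% of all listed starts. A match describes the letters and is not a mapped m6A site. The first transcribed base was G in 37 of the 61 starts (60.7%, 47.3% to 72.9%) and A in 9 (14.8%, 6.98% to 26.2%). Control peaks at starts had G in 52.7% and A in 27.5%, and all listed starts G in 35.6% and A in 34.4%.

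A second set of members is shown because each peak had exactly the bounds of a miRNA hairpin in the RefSeq hairpin table. There were 12 control and 5 Dox peaks of this kind, and 4 of the 9 overlapped control peaks among them were members. Besides these, 2 members had exactly the bounds of a RefSeq miRNA gene: Mir692-3 (folds 1.86 in control and 1.53 in Dox) and Mir1901 (2.99 and 3.25). The 4 hairpins are printed 5′ to 3′ with the mature miRNA or miRNAs in capitals (RefSeq, GRCm38.p6).
Mir8114, chr1:153899926-153900036, plus strand: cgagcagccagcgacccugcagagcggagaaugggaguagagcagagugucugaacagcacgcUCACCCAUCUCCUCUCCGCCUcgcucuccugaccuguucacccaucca
Mir1905, chr3:88536301-88536382, minus strand: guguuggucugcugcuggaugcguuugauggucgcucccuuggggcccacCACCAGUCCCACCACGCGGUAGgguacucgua
Mir692-2, chr4:125504749-125504857, plus strand: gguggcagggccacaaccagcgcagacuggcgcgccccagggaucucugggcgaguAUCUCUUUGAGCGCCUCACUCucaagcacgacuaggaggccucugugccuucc
Mir7653, chr11:78178827-78178887, plus strand: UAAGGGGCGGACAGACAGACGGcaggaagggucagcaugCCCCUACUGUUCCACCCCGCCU

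The fold of a peak is the authors' ratio of IP over input, and its log10 FDR is the authors' too. The hairpin peaks had folds of 2.67 in control and 3.43 in Dox for Mir8114, 4.46 and 4.6 for Mir1905, and 2.58 and 1.43 for Mir692-2. Mir7653 had the widest spread, 17.6 in the control table (log10 FDR -87) and 3.71 in the Dox table (log10 FDR -11.5). The hairpins lie inside longer genes, and for 3 of them a control peak of another identifier spanned the hairpin on the same strand. For Mir7653 that peak belonged to Tlcd1, a gene of membrane lipid composition, with folds of 40 in control and 7.59 in Dox. Mir8114 lies in Glul (glutamine synthetase), and the Glul peak over it had folds of 2.04 and 3.52. The Mir692-2 hairpin lies in a ferritin pseudogene, Ftl2-ps. Mir1905 lies opposite Mex3a, an RNA-binding protein gene, and the Mex3a peak over it had folds of 23.6 and 8.52. Reads of a hairpin and of the transcript around it cannot be told apart here, and these values are no evidence that the miRNAs themselves carry the mark.

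Exact identity was the far end of a graded pattern in which peak bounds moved in steps. Pairing peaks 1 to 1 (same identifier, and neither peak overlapping any other) gave 16356 pairs, of which 1672 had the same bounds (10.2%, 9.76% to 10.7%). The other 109 members overlapped a further peak, often of another identifier, and stood outside this pairing. The 5′ bound was equal in 31.9% of pairs and the 3′ bound in 27.8%. Both bounds differed in 50.6%. Where the outer bounds were equal, the exonic blocks were always equal too (0 exceptions, at most 0.0226% of all 16356 pairs by the exact interval). Both peaks of a pair carry the same identifier, so this is a description and no test.

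Shifts came in units of about 30 nt of exonic sequence. Of 11145 differing 5′ bounds, 95.8% were displaced by a whole multiple of 30 nt within 1 nt, and of 11817 differing 3′ bounds, 95.6%. The median displacement was 60 nt at both ends (quartiles 30 and 90 nt). Just outside the rule were 4302 pairs (26.3%) whose bounds both lay within 30 nt of each other without being the same, compared with the 1672 pairs inside it. The 3′ bound was equal in 32.1% of pairs with an equal 5′ bound (30.8% to 33.4%) and in 25.7% of the others (24.9% to 26.5%). Hence equality at one end went with equality at the other, by a margin of a few percentage points.

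**Figure D1:**
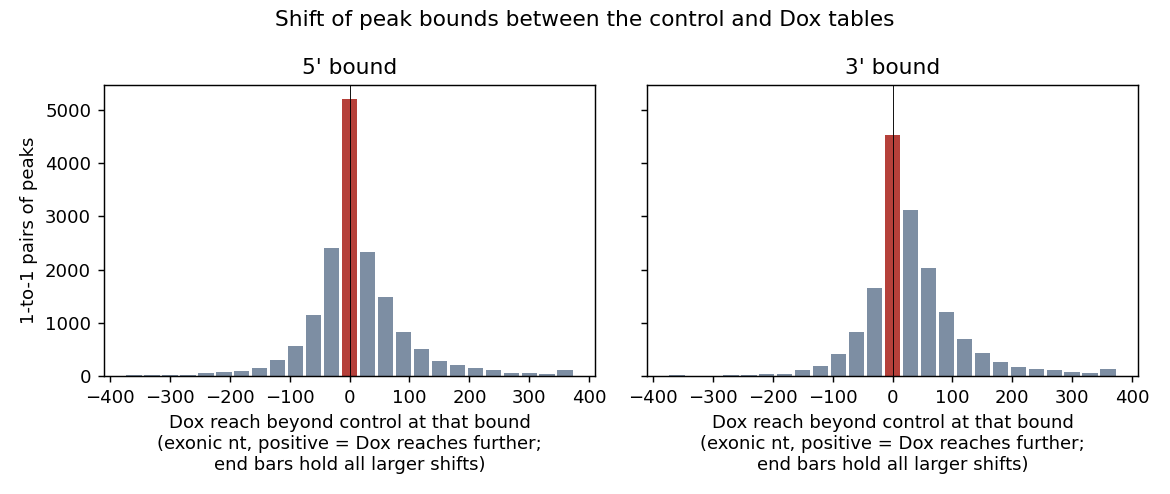
Histogram of the shift in exonic nucleotides of the 5′ bound (left) and 3′ bound (right) in the 16356 pairs, in bins of 30 nt, with the bin around 0 in red. The Dox peak reached further in 55.8% of the differing 5′ bounds and in 71.6% of the differing 3′ bounds, and the end bars hold all larger shifts.

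The differing bounds were not symmetric. Among them the Dox peak reached further than the control peak at 71.6% of 3′ bounds (70.8% to 72.4%) and at 55.8% of 5′ bounds (54.9% to 56.8%). In 22.7% of all pairs the Dox peak extended past the control peak at both ends, whereas the control peak did so in 8.41%. Bounds at annotated gene ends were equal more often. When the control 5′ bound lay on a RefSeq start, it was equal in 221 of 384 pairs (57.6%, 52.4% to 62.6%), and elsewhere in 31.2%. When the control 3′ bound lay on a RefSeq gene end, it was equal in 55 of 56 pairs (98.2%, 90.4% to 100%), and elsewhere in 27.5%.

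The median exonic width of members was 240 nt (quartiles 180 and 359 nt, range 54 to 2366 nt). In the pairs with different bounds, the median was 241 nt for the control peak and 299 nt for the Dox peak, and over the whole tables it was 211 and 240 nt. Members were thus as wide as the control peaks of differing pairs and narrower than their Dox peaks. Of the members, 940 lay in 1 exonic block (52.8%), 472 in 2 blocks and 369 in 3 or more, with a maximum of 11. Width takes part in the bounds that chose the members, so these values are a description.

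The widest member covered 2366 nt in 9 exonic blocks of Amotl2, which encodes an angiomotin family protein of cell junctions and Hippo signalling. It spanned chr9:102723553-102732310, with a fold of 10.6 in control and 5.12 in Dox. Taok2, a kinase of the STE20 family, followed with 2006 nt in 6 blocks (folds 17.1 and 8.38). Dact2, a regulator of Wnt and TGF-beta signalling, had 1733 nt in 2 blocks (11.2 and 7.67), Safb2, a scaffold attachment factor, 1675 nt in 9 blocks (22.5 and 8.62), and Ncaph2, a condensin II subunit, 1590 nt in 7 blocks (7.26 and 3.66). The most blocks, 11, were spanned by the member of Rrbp1, a ribosome receptor of the endoplasmic reticulum (1260 nt, folds 7.07 and 4.95). Col18a1, the gene of a basement membrane collagen, and Tjap1, a tight junction associated protein gene, each had a member of 10 blocks. That of Tjap1 also began at a RefSeq start. Equality was thus not limited to narrow peaks in 1 exon.

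At the other end, among members of genes with a symbol (predicted Gm and Rik genes left out), the 5 narrowest with log10 FDRs down to -5 or lower in each table covered 121 to 149 nt. Unnamed identifiers had narrower ones, such as the 61 nt of Mir7653. Those of exactly 121 nt belonged to Cnot8, a deadenylase subunit (folds 5.63 and 2.92), Ncapd2, a condensin I subunit (1.63 and 1.31), and Snrnp200, a spliceosomal helicase (1.48 and 1.66). Ube2a, a ubiquitin-conjugating enzyme gene, had a member of 144 nt with folds of 3.34 and 3.94, and Dut, the gene of dUTPase, one of 149 nt with 1.6 and 1.51. The folds of Ncapd2, Snrnp200 and Dut lay far below the table medians of 4.62 and 3.51.

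Better supported control peaks had an identical Dox partner more often. The share rose from 5.25% of overlapped control peaks with a log10 FDR above -5 (4.67% to 5.87%) to 14.7% of those at -100 or less (13.5% to 16.0%), through 6.67%, 7.88%, 9.09% and 11.3% in the classes between. Within the strongest class the share depended on width. It was 65.4% of 52 control peaks of 100 to under 200 nt (50.9% to 78.0%), 25.6% of 407 peaks of 200 to under 300 nt, 16.3% of 1176 peaks of 300 to under 500 nt and 6.09% of 361 peaks of 1000 nt or more. Identity was therefore most frequent in peaks that were both strong and narrow, and the 34 members in that class are taken up below.

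**Figure D2:**
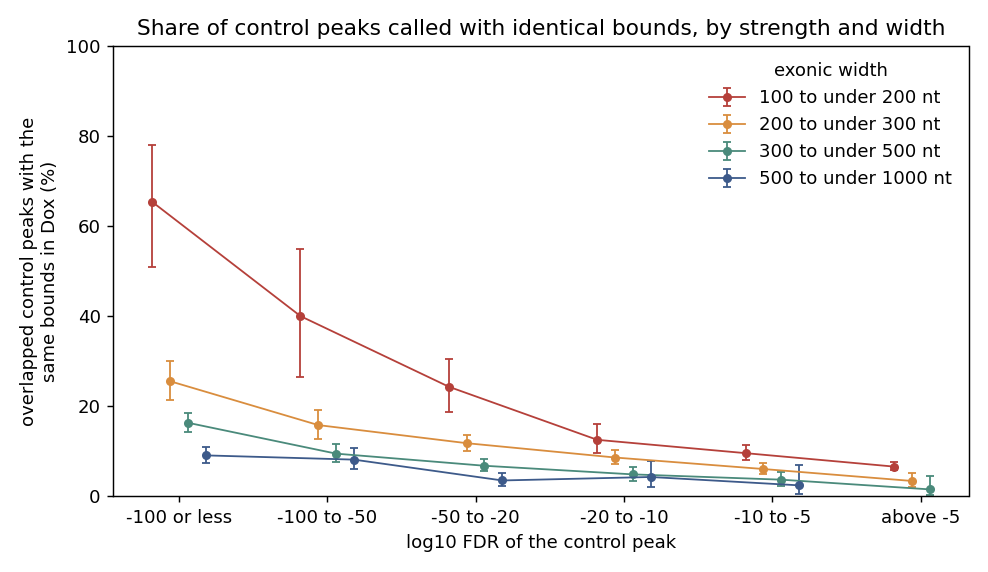
Percentage of overlapped control peaks that had the same bounds in the Dox table (vertical axis), by class of the control log10 FDR (horizontal axis) and exonic width (colours), with exact 95% intervals as bars. The narrow class of 100 to under 200 nt falls from 65.4% at -100 or less to 6.58% above -5, and every other width class plotted lies below it at -100 or less.

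Position along genes was measured by the exonic midpoint of each peak, in RefSeq genes spanning 3000 nt or more. Of the 1329 members that could be placed, 207 lay within 500 nt of the gene's 5′ end (15.6%, 13.7% to 17.6%), 189 within 1000 nt of the 3′ end (14.2%, 12.4% to 16.2%) and 933 between (70.2%). Control peaks of pairs with different bounds lay at the 5′ end in 10.7% (10.2% to 11.2%) and at the 3′ end in 15.2% (14.5% to 15.8%). Over the whole tables, 13.2% of placed control peaks and 7.87% of placed Dox peaks lay at the 5′ end. Read the other way, 11.3% of overlapped control peaks at 5′ ends were members (9.88% to 12.8%), compared with 6.76% between (6.35% to 7.19%) and 6.90% at 3′ ends (5.98% to 7.92%). Fewer control peaks were overlapped at 5′ ends (61.5%) than between (83.8%) or at 3′ ends (89.1%). Of all placed control peaks, overlapped or not, the members were 6.95% at 5′ ends, 5.66% between and 6.15% at 3′ ends. Among overlapped peaks, the higher share at 5′ ends held in the strongest class of control peaks too, at 23.7% of 274 (18.8% to 29.2%), beside 11.9% between and 10.4% at 3′ ends. In 19 members the 3′ bound lay exactly on a RefSeq gene end (1.07%, 0.643% to 1.66%), among them that of Nodal, a TGF-beta family morphogen (folds 5.8 and 3.97). The share was 0.266% of control peaks in pairs with different bounds, 0.283% of all control peaks and 0.489% of all Dox peaks. By chromosome, 6.63% (chromosome 8) to 11.1% (chromosome 3) of overlapped control peaks were members over the autosomes and X.

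The 1781 members were spread over 1617 gene identifiers, which is 15.4% of the 10481 identifiers with a peak in both tables (14.7% to 16.1%). A single member was found on 1474 identifiers, 2 on 123, 3 on 19 and 4 on 1. In 424 identifiers the member was the only peak in either table, 15.3% of the 2777 identifiers with exactly 1 peak in each table. Of overlapped control peaks that were the only control peak of their identifier, 14.0% were members (12.9% to 15.1%), compared with 6.51% on identifiers with 5 or more control peaks (5.85% to 7.21%). Between single and several control peaks, the contrast was wider on identifiers without a gene name than on named ones, with values given below.

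Taok2 was the only gene with 4 members, of 6 control and 6 Dox peaks. Besides the wide peak above, it had a strong member of 330 nt with folds of 33.6 and 15.3 and weaker ones of 210 nt (4.51 and 2.37) and 181 nt (4.37 and 2.37). All 4 had the higher value in control, as had 77.7% of all members. Ddx23, a spliceosomal helicase gene, had 3 members among 7 peaks in each table. Their control folds were 12.2, 13.5 and 15.2, and their Dox folds 4.11, 4.88 and 6.49. Cdk9, the kinase of the elongation factor P-TEFb, had 3 with mixed order: 7.54 and 5, 5.48 and 2.92, and 4.29 and 5.92 in control and Dox. Capzb, a subunit of the actin capping protein, combined a member of high control fold near its 5′ end (32.9 in control, 4.73 in Dox) with one near its 3′ end of 1.53 and 1.59. Ccdc12, a spliceosome-associated protein gene, had 3 of its 4 peaks in each table as members, and the first had folds of 38.8 and 18.2. Acy1 (aminoacylase), Adrm1 (a proteasome ubiquitin receptor) and Bola2 (a partner of glutaredoxins in iron-sulfur protein assembly) also had 3 each. One Bola2 member lies within another, so both share reads and are not separate measurements.

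By the fixed rule for the strongest members in both tables, 10 peaks of 9 genes came first. Many log10 FDRs were too low for the tables to store and appear there as minus infinity (152 members in control, 54 in Dox), so the rule broke ties by symbol. Besides 2 peaks of Bola2 (folds 12.9 and 4.72, and 13.6 and 4.52) and the widest of Ddx23, they were members of Bysl, a ribosome assembly factor gene (7.85 and 4.42), Ccdc43 (6.6 and 5.42), Cdc34, a ubiquitin-conjugating enzyme gene (3.77 and 3.04), and Cdk5rap2, a centrosomal protein gene (19 and 6.98). The remaining peaks lay in Cnot10, a subunit gene of the CCR4-NOT deadenylase (7.41 and 4.67), Ddx54, a nucleolar helicase gene (10.7 and 6.66), and Drap1, a subunit gene of the NC2 transcription repressor (14.3 and 6.74). All 10 had the higher fold value in the control table. Control folds ran higher in the tables as a whole, with medians of 4.62 and 3.51.

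Ordered by log10 p instead, which the tables store to lower values, the strongest members were others, a choice made after the values were seen. Lars2, the mitochondrial leucyl-tRNA synthetase gene, reached a log10 p of -7100 in control and -11700 in Dox, with folds of 6.61 and 4.89. Rpl18 reached -5110 and -3990 (4.41 and 3.52) and Rps15, a small-subunit ribosomal protein gene, -6760 and -3230 (4.83 and 2.87). Hmga1, a chromatin architectural protein gene, had -4020 and -2320 with folds of 6.59 and 3.88. Pou5f1 and Ftl1 were also among the first 8, Ftl1 with folds of 26.8 in control and 5.22 in Dox. Apart from the control fold of Ftl1, a very low p came with moderate folds here. Values of ribosomal protein genes are uncertain because they have many processed copies.

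Within each table the members ranked high by FDR and close to the middle by fold. A percentile is the place of a peak in its own table, with 100 for the strongest and ties at their middle rank. The median member stood at percentile 71.7 by log10 FDR in the control table (quartiles 47.3 and 88.5) and at 69.0 in the Dox table (45.9 and 86.8). By fold it stood at 54.8 and 54.4. Above the 75th percentile lay 814 members by FDR in control (45.7%) and 756 in Dox (42.4%), and by fold 458 (25.7%) and 464 (26.1%). In values, the median log10 FDR of members was -29.1 in control and -16.7 in Dox, and the median fold 5.13 (range 1.34 to 108) and 3.73 (range 1.18 to 33.6). Pairs with different bounds had median log10 FDRs of -12 and -10.5 and median folds of 4.51 and 3.71.

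The fold ranks of the same peak in both tables were alike but loose. Spearman's rho over the 1781 members was 0.736 for fold and 0.891 for log10 FDR, and over the 14684 pairs with different bounds 0.630 and 0.743. These coefficients are descriptions across peaks that share the same pooled libraries, and their members also share one region and therefore its base composition and length. The median gap between a member's fold percentiles was 11.5 points (15.1 in pairs with different bounds). A gap over 50 points occurred in 19 members (1.07%) and in 4.71% of the other pairs. The fold value itself was higher in control in 1383 members (77.7%, 75.6% to 79.6%) and in 64.5% of pairs with different bounds (63.8% to 65.3%). By rank within each table the members split evenly: 888 (49.9%) had the higher fold percentile in Dox, as had 57.9% of pairs with different bounds. Since the tables were called separately and no source used here gives the scaling of IP to input, this count does not show a change in methylation.

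**Figure D3:**
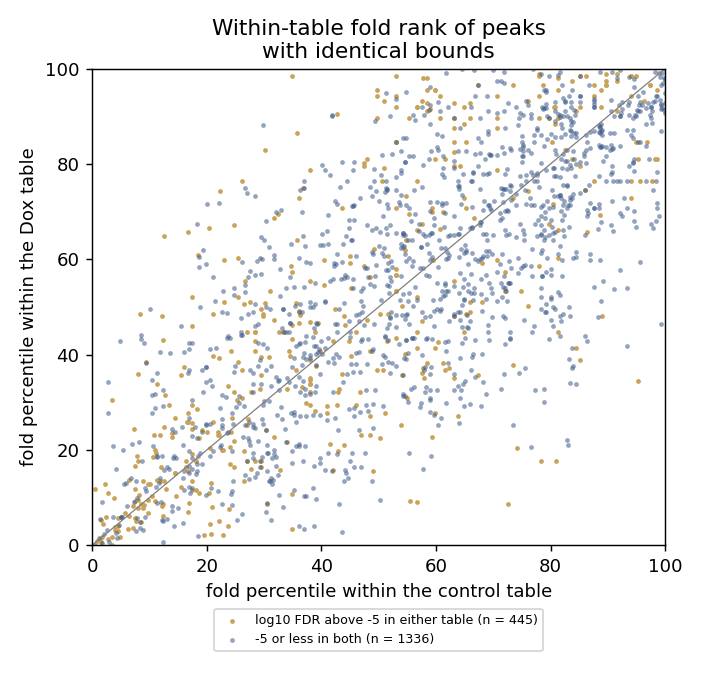
Percentile of the fold within the control table (horizontal) and within the Dox table (vertical) for each of the 1781 members. Blue points reach -5 or lower by log10 FDR in each table (1336 members), yellow points do not (445), the grey line marks equal percentiles, and rho over all points is 0.736.

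Differences in fold rank are given for the 5 extremes in each direction among members of genes with a symbol, no Gm or Rik gene, that reached -5 or lower by log10 FDR in each table. Plbd2, a lysosomal hydrolase-like gene, had a fold of 8.72 in control and 2.27 in Dox, which is percentile 76.6 and 20.6. Idh2, the mitochondrial NADP-dependent isocitrate dehydrogenase gene, had 35.7 and 3.33 (percentiles 99.2 and 46.5). Mlf2 had 17.7 and 3.12, Rab5if 11.7 and 2.91, and Stmn2, a microtubule regulator gene, 11.8 and 2.93. In these 5 the rank was higher in control. In the opposite direction Zcchc10 had 2.61 and 4.96 (percentiles 20.1 and 71.6), Ensa, an inhibitor of the phosphatase PP2A, 2.51 and 4.61, and Uhrf1bp1 2.98 and 5.28. Dapp1, a signalling adaptor gene, had 4.75 and 11.2, and Dpf2, a BAF remodeling complex subunit gene, 2.53 and 4.11. They were selected as extremes, so their sizes are a description only, and some unnamed identifiers had wider gaps, such as the one opposite H2ac4 described below (percentiles 83.0 and 21.1). Ranks from tables of different length show no change.

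The members at genes of the studied pathways were few, as the gene lists held few peaks. The shares below are of overlapped control peaks and are read beside the 8.55% over all peaks. The lists were chosen with results of these data known. Naive pluripotency regulators had 4 members of 101 peaks (3.96%, 1.09% to 9.83%). One lay in Pou5f1, the gene of the transcription factor OCT4, over 540 nt at its 5′ end (chr17:35506018-35507555), with folds of 8.85 and 4.22 and a log10 p of -4750 in control and -2060 in Dox. The others were in Stat3, the transcription factor downstream of LIF (4.6 and 4), Klf5 (2.86 and 2.45) and Tet2, a methylcytosine dioxygenase gene (8.61 and 3.52, log10 FDR above -5 in both). Germ layer and primed state genes had 4 of 24 (16.7%, 4.74% to 37.4%), in Nodal, in Dnmt3a (2), a DNA methyltransferase gene, and in Nes, the gene of nestin. The Dnmt3a folds (7.63 and 19.5, and 14.8 and 14.1) are of weak peaks, with log10 FDRs from -3.68 to -6.76. The intervals of these first lists, pluripotency and germ layer, both included 8.55%.

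Among genes of the m6A machinery, 6 of 58 peaks were members (10.3%, 3.89% to 21.2%). Igf2bp1, an m6A reader gene, had a member of 391 nt with folds of 6.46 and 4.17, and Ythdc1, the nuclear reader gene, one of 300 nt near its 5′ end with 11.5 and 7.59. Mettl16, a methyltransferase gene, had 8.26 and 7.97, and Hnrnpa2b1, an RNA-binding protein gene, 2.46 and 1.96 in a peak that starts at its RefSeq start. Enzymes and readers of H3K36 methylation had 7 of 80 (8.75%, 3.59% to 17.2%). The strongest 2 lay in Morf4l1, the MRG15 reader gene (4.59 and 3.86, and 2.64 and 3.08), and others in Kdm2a, a demethylase gene (15.8 and 6.85), and Setd5 (3.72 and 3.11). Setd2, the targeted gene, had 1 member: 181 nt in 3 exonic blocks from chr9:110577325-110592516, with folds of 4.46 and 5.97 and weak log10 FDRs of -3.73 and -1.65. The other 4 Setd2 pairs differed, 2 of them at the 5′ bound alone, by 30 and 90 nt. A peak table does not measure transcript level, so the knockdown cannot be checked from it.

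Polycomb and KMT2 complex genes had 6 members of 95 peaks (6.32%, 2.35% to 13.2%). Ash2l and Wdr5, core subunits of the H3K4 methyltransferases, had folds of 15 and 6.87, and 2.28 and 1.75. Pcgf6, a PRC1 subunit gene, had 23 and 6.44, and Rbbp5 9.98 and 3.62. Chromatin remodelers had 8 of 121 (6.61%, 2.90% to 12.6%), in Chd4 of the NuRD complex (4.33 and 3.36), Baz2a (5.28 and 2.75), Baz1b (5.32 and 7.58) and Ep400 (5.73 and 4.7), among others. Cell cycle genes had 4 of 64 (6.25%, 1.73% to 15.2%). They were 2 in Mcm2, a replicative helicase gene (6.51 and 3.76, and 2.02 and 1.51), and 1 each in Cdc25b, a phosphatase gene (7.54 and 3.72), and E2f2 (4.72 and 9.76, at log10 FDRs above -5). p53 targets and apoptosis genes had 4 of 35 (11.4%, 3.20% to 26.7%): 2 in Bcl2l1, the BCL-XL gene (6.17 and 6.18, and 9.27 and 3.62), and 1 each in Sesn1 (4.03 and 4.14) and Bak1 (2.71 and 2.39). Fibroblast markers had 1 of 17 (5.88%, 0.149% to 28.7%), in Vim, the vimentin gene (2.92 and 2.68).

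The broader gene families had more peaks. Zinc finger (Zfp) genes had 25 members of 500 (5.0%, 3.26% to 7.29%), solute carriers 25 of 268 (9.33%, 6.13% to 13.5%) and cytoplasmic ribosomal protein genes 12 of 67 (17.9%, 9.61% to 29.2%). The interval for Zfp genes lay below 8.55% and that for ribosomal protein genes above it. The ribosomal protein members stood at a median control FDR percentile of 98.3. Of all overlapped control peaks with a log10 FDR of -100 or less, 14.7% were members, a share inside the ribosomal interval. Zfp57, which guards imprinted loci, had folds of 5.61 and 12.6, Zfp36l2, an mRNA decay factor gene, 57.5 and 8.26, Zfp330 10.9 and 7.69 and Zfp444 11 and 5.01. Slc39a7, a zinc transporter gene, had 3 members, the strongest with 7.5 and 6.37, and Slc2a1, the glucose transporter GLUT1 gene, 1 with 2.19 and 1.65. Slc45a4 (6.92 and 4.42) and Slc25a20 (5.77 and 2.72), a carnitine carrier gene, followed the same rule. Of the ribosomal protein genes, Rpl11 had 3.64 and 2.28, Rpl14 3.55 and 3.45 and Rpl36 4.74 and 3.23. Rpl14, Rpl18 and Rpl36 each had 1 peak in either table. Zfp and ribosomal protein genes have close copies, and their values are uncertain for that reason.

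Members also differed from other overlapping peaks in the kind of identifier that carried them, a split made after the values were seen. Identifiers named by location after a protein-coding gene carried 1375 members (77.2%) but 92.6% of the control peaks in pairs with different bounds. Of their overlapped control peaks, 7.28% were members (6.92% to 7.66%). Unnamed identifiers within a RefSeq pseudogene carried 235 members, 31.97% of 735 overlapped control peaks (28.6% to 35.5%). Unnamed identifiers on the opposite strand of a protein-coding gene carried 77, 22.6% of 340 (18.3% to 27.5%). The other kinds had shares from 10.2% to 13.0%, with intervals that include 8.55%.

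**Figure D4:**
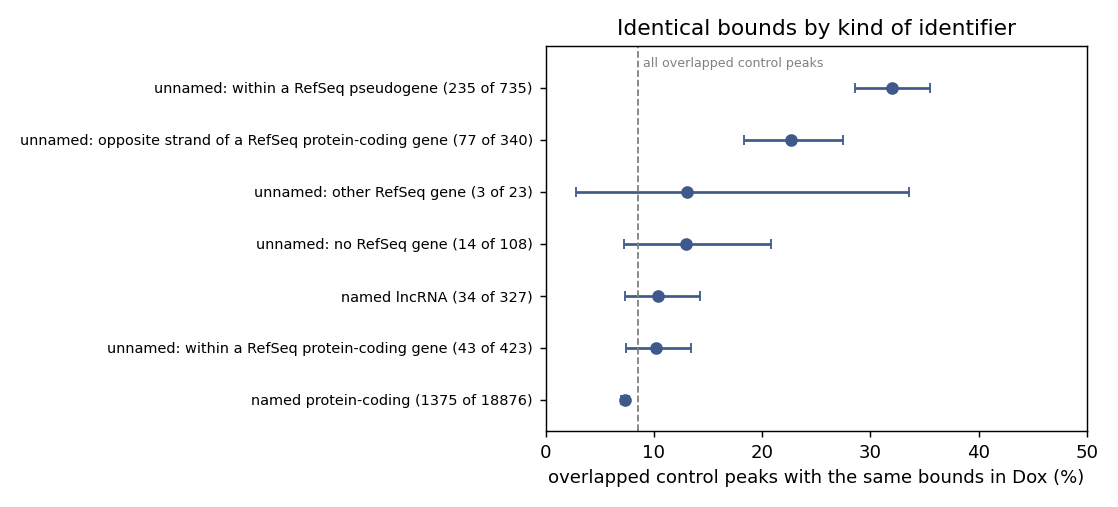
Percentage of overlapped control peaks that had the same bounds in the Dox table, by kind of identifier, with exact 95% intervals and the number of members of overlapped control peaks in each label. The dashed line marks 8.55% over all overlapped control peaks, and the pseudogene group lies at 31.97%.

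Members within pseudogenes were narrow, with a median of 180 nt (quartiles 150 and 239 nt), and for 171 of the 235 the member was the only peak of the identifier in each table. Their folds had medians of 3.74 in control (range 1.61 to 20) and 3.1 in Dox (1.42 to 17.1), beside 5.13 and 3.73 over all members. Among the best ranked were Ftl1-ps1, a ferritin light chain copy (179 nt, 6.92 and 2.79), Rpl19-ps9 (177 nt, 9.35 and 4.59), Rpl14-ps1 (533 nt, 7.01 and 2.7) and Rps10-ps1 (205 nt, 5.41 and 3.46). Ribosomal protein symbols accounted for 20 of the 235, with Rpsa-ps5 and Rpsa-ps12 not counted, and predicted (Gm) symbols for 173. A Gm symbol does not name the parent gene, so the share of ribosomal protein copies is not known. Ywhaq-ps3, a copy of a 14-3-3 gene, had a member of 325 nt (10.7 and 4.83) inside the 450-nt member of Cdk5rap2 on the same strand, so both peaks may hold the same reads. A pseudogene copy cannot be told apart from its parent gene by these values. Widths off the 30-nt grid (no whole multiple of 30 nt within 1 nt) were frequent here, in 156 of 235.

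The 77 members on the opposite strand of a protein-coding gene nearly all lay over a peak on the other strand, with folds that were often but not always close. As many as 74 of them (96.1%) overlapped a peak on the other strand, in each table, compared with 10.5% of all members in control (9.11% to 12.02%) and 6.69% of control peaks in pairs with different bounds. Of these 74, 40 had a control fold within 1.2 times that of the opposite peak, and 43 a Dox fold. Within 2 times lay 59 control folds and 66 Dox folds. The median ratio was 1.01 in control and 0.994 in Dox. Some control folds were far apart in either direction. Opposite Mxi1 the member had 3.97 and the other strand 27.1, and opposite Dyrk2 18.5 and 3.69. Close pairs are given next. A member opposite Pou5f1 (chr17:35509077-35509309), had folds of 4.45 and 2.6, and the peak on the Pou5f1 strand 4.42 and 3.15. Opposite Mrps18b, a mitochondrial ribosomal protein gene, the folds were 4.74 and 5.18, and on its own strand 4.79 and 5.18. Opposite Tpm4, a tropomyosin gene, they were 26.1 and 9.43, with 23.5 and 8 on the gene's strand. The libraries were made with a stranded kit, but no source used here says whether reads were counted by strand. Reads of a gene and of its antisense partner can therefore not be told apart.

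A uniform set of members lay opposite histone H2A genes, 14 of them among the 77 above. H2A is a core histone of the nucleosome, and mRNAs of the replication-dependent histone genes end in a stem-loop in place of a poly(A) tail. Identifiers on the opposite strand of 15 different H2A genes each carried 1 peak in either table, of 138 to 144 nt in 1 block and with the same bounds. Their control folds were 7.65 opposite H2ac10, 11.2 opposite H2ac11, 10.8 opposite H2ac12, 12.2 opposite H2ac13, 10.4 opposite H2ac15, 5.41 opposite H2ac19, 7.81 opposite H2ac22 and 8 opposite H2ac23. The remaining control folds were 10.3 opposite H2ac24, 11.3 opposite H2ac4, 11.5 opposite H2ac6, 11.4 opposite H2ac7, 11.5 opposite H2ac8, 9.86 opposite H2aj and 5.33 opposite H2aw. All but 3 of the genes lie on chromosome 13. The exceptions are H2ac19 on chromosome 3, H2aj on chromosome 6 and H2aw on chromosome 11.

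In the Dox table the same 15 peaks had folds from 1.82 (opposite H2ac22) to 3.87 (opposite H2aj), with a median of 2.78 beside 10.4 in control. Over all members the median fold was 5.13 in control and 3.73 in Dox, and 77.7% had the higher fold value in control. In rank the 15 peaks stood at a median fold percentile of 81.0 in control and 34.0 in Dox, whereas the members as a whole stood at 54.8 and 54.4. The log10 FDR ran from -261 to -9.97 in control and from -54.9 to -1.89 in Dox. All 15 overlapped peaks on the gene's own strand in both tables, with folds of 4.48 to 22.1 in control (median 10) and 1.92 to 11.6 in Dox (median 2.92). Opposite H2ac4, for example, the gene's own peak had 9.76 and 1.92. At H2aj a sense peak of 462 nt was itself a member, with folds of 9.69 and 3.9. Members opposite or within H2ac14 and H2ac5-ps, whose strand the reference tables did not give, had 14.6 and 3.8, and 9.45 and 2.63. H2ac18 had 2 overlapping members on its own strand, with folds of 5.07 and 3, and 5.13 and 2.99. Over RefSeq genes with H2ac, H2aj, H2aw, H2ax or H2az symbols 20 of 44 overlapped control peaks were members (45.5%, 30.4% to 61.2%), a set singled out after its values were seen. It leaves out a member of 138 nt at another H2A pseudogene, H2af-ps2 (6.4 and 3.25). With 1 pooled value per condition, these lower Dox folds have no replicate check, and the amount of histone RNA in input or IP was not tested. No source used here says how reads that match more than 1 H2A gene were placed. The 15 peaks can therefore not be taken as separate measurements.

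**Figure D5:**
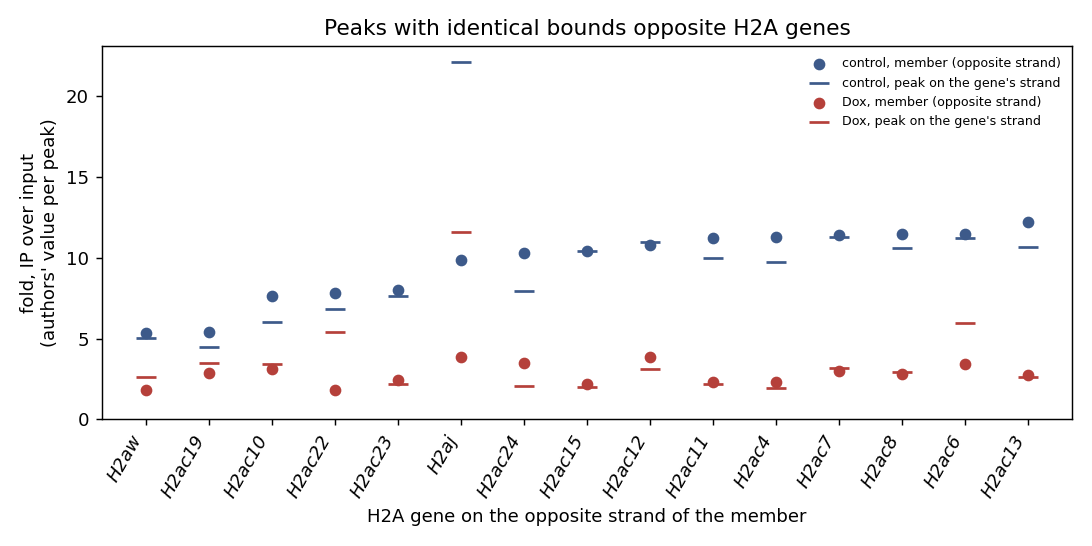
Fold of IP over input for the 15 members opposite H2A genes (circles) and for the peak on the gene's own strand that overlaps most (dashes), in control (blue) and Dox (red). Circles lie between 5.33 and 12.2 in control and between 1.82 and 3.87 in Dox.

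Altogether 38 members were narrower than 200 nt and at a control log10 FDR of -100 or less. Only 5 of them lay on named identifiers. For 31 the member was the only peak of its identifier in each table, and 30 had a width that is no whole multiple of 30 nt. Most overlapped control peaks had a width on the 30-nt grid (17277 of 20832). Off the grid 13.6% of overlapped control peaks were members (12.5% to 14.8%), and on it 7.50% (7.11% to 7.90%). At a control log10 FDR of -100 or less the shares were close, 15.7% off the grid (13.6% to 17.8%) and 14.1% on it (12.6% to 15.8%). In every weaker class the share was higher off the grid. It was 13.7% beside 10.4% at -100 to -50 and 11.9% beside 8.34% at -50 to -20. At -10 to -5 it was 12.2% beside 6.07%, and above -5 it was 15.7% beside 4.71%. Over all classes of log10 FDR, named identifiers with at least 2 control peaks had 8.17% (7.01% to 9.45%) off the grid and 6.98% (6.56% to 7.40%) on it. Named identifiers with a single control peak had 89 of 776 (11.5%) off the grid and 152 of 2030 (7.49%) on it. Unnamed identifiers with a single control peak reached 33.7% (29.8% to 37.7%) off the grid and 23.8% (19.7% to 28.4%) on it. Unnamed identifiers with at least 2 control peaks had 37 of 184 (20.1%) and 49 of 483 (10.1%).

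Some members were weak. In 245 (13.8%, 12.2% to 15.4%) the log10 FDR was above -5 in both tables, 1336 were at -5 or less in both, and 1305 (73.3%) were also in both of the authors' shorter lists. For comparison, those lists held 16914 of all 25815 control peaks and 15500 of all 27612 Dox peaks. In the control table alone 288 members were above -5, of 5490 such overlapped control peaks. High folds of weak peaks were coarse. At folds of 8 to 40 and log10 FDRs above -8, 37 of 60 members had a control fold that is a whole multiple of 1.23 within rounding, and 65 of 84 a Dox fold that is a whole multiple of 1.08. Over all peaks in that range it was 2032 of 2628 in control (77.3%) and 1521 of 1891 in Dox (80.4%). Fold ranks of such members, among them those of Tet2 in control and E2f2 and Dnmt3a in Dox, rest on few distinct values.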

How the data were processed

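The authors deposited 1 exomePeak table and 1 shorter list per condition, each made from the 4 libraries of that condition with both replicates pooled, per the labels. Without giving their roles, the submitters' processing notes list the build mm10 and the tools TopHat2 2.1.1 and FastQC 0.11.5. For exomePeak, the version, settings, annotation and use of strand were not given in the sources used here. Per the file headers, the deposited tables hold a fold (ratio of IP over input), a p-value and 2 score columns, the log10 p and the log10 FDR. The shorter lists were checked to be exactly the peaks that reach a p of 1e-05 and a fold of 2. Depth is unknown, and no test was made.

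Rows equal in all position fields were matched, and bounds were compared in exonic coordinates. Identifiers were named by location: the protein-coding, otherwise long noncoding, RefSeq gene (GRCm38.p6) on the same or an unlisted strand that holds at least 50% of their peak midpoints, 1 identifier per gene. This named 11085 of 13110 identifiers (84.6%). Overlapping genes can be misnamed. Coordinates are 1-based.

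The members and gene lists were chosen with earlier results of these data known. Named genes are the 10 strongest in both tables, the 5 widest, the 5 with most blocks, the 5 narrowest, the 10 extremes of fold rank, up to 8 genes with 3 or more members, up to 4 members per list, and Setd2. Genes on unnamed identifiers were named after their values were seen. Some genes are not reported here. Alternatives were other thresholds, equality fields, a 30-nt tolerance, end windows and overlap. No genome was used, so exons were not classed, and sequence was read only at listed RefSeq starts and miRNA hairpins.

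Python 3.11.15 was used with scipy 1.17.1, matplotlib 3.10.9, pandas 2.3.3 and numpy 2.4.6. Overlaps, shifts and midpoints had 0 errors in a simulation with 300 peaks per list.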

Additional observations from a re-analysis of the deposited data

How the results depend on the processing

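The number of members stayed at 1781 when only the outer bounds and strand, or all fields but the identifier, had to be equal, was 5803 with each outer bound allowed to differ by 30 nt on the genome (not in exonic nt, as for the pairs), 1305 in the authors' shorter lists, 1336 at -5 or lower by log10 FDR in each table, and 746 with a fold of at least 4 in both tables. The share of overlapped control peaks was 10.1% in the authors' shorter lists and 10.2% among peaks reaching -5 by log10 FDR in each table. There the median width was 297 nt and 287.5 nt. With windows of 250 nt at the 5′ end and 500 nt at the 3′ end, 11.2% of members lay at 5′ ends and 8.05% at 3′ ends, by construction of the narrower windows. Within the shorter lists, the median percentile by FDR in Dox was 62.8, and those by fold were 53.4 in control and 51.7 in Dox. The remaining recomputed shares, widths and percentiles lay within the main value's 95% interval. Except for the windows, the cause of these shifts was not tested. No paired analysis was possible because each condition has 1 table pooled over its replicates, and for the same reason no replicate could be left out. What depth limits could not be assessed, since no read numbers were used.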
